A study of Homo sapiens with 60 samples.

Results

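The 10 genes described here encode the transcription factor NRF2 (gene NFE2L2), its inhibitor KEAP1, and 8 enzymes and stress proteins widely used as readouts of NRF2 activity. They were chosen by name and found in the count table by Ensembl gene identifier. All 10 were among the 60675 genes of the table, and all 10 were among the 16093 genes that passed a filter on low counts. The choice was made by function and not by measured value, although earlier results of these data were known when it was made.

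NRF2 is made continuously, and in unstressed cells KEAP1 holds it and hands it to a ubiquitin ligase for destruction. Electrophiles and oxidants modify cysteines of KEAP1, so that newly made NRF2 escapes, enters the nucleus and, with a small MAF protein, binds antioxidant response elements near its target genes. The liver, which meets plant compounds first after the gut, relies on these targets to reduce quinones, break down heme and recycle thioredoxin. Because NRF2 is controlled mostly as a protein, the level of its mRNA does not by itself report its activity.

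The study measured mRNA by sequencing in HepG2, an established human liver cancer cell line that keeps many hepatocyte functions. Cells were treated for 24 h, and each of the 20 groups had 3 libraries, 60 in all. One group received wortmannin at 10 µM, an inhibitor of phosphoinositide 3-kinases, and 18 groups received a water extract of a medicinal plant or fungus at 20, 100 or 500 µg/mL. The 6 extracts are named by their source below: peony (Paeoniae Radix), angelica (Angelicae Gigantis Radix), ginseng (Panax Ginseng), licorice (Glycyrrhizae Radix), Atractylodes (Atractylodis Rhizoma) and Poria (Poria Cocos, a fungus). The vehicle group received DMSO, at 0.1% according to the sample labels and at 2% according to the series text. The labels of the extract and wortmannin groups give no DMSO level.

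Library totals ran from 20.9 to 33.4 M expected counts, with a median of 26.1 M. Hepatocyte markers such as ALB and APOB summed to 53748 to 77160 CPM (counts scaled to the library total) over the 60 libraries. Of 8 blood cell markers PTPRC was at 0 in each library, but the list summed to 1340 to 2873 CPM, mostly from LYZ (mean 1730 CPM) and CD68 (mean 54.3 CPM). Of the 5 of these tested against vehicle, 3 rose and 1 fell with Poria at 500 µg/mL, and 3 rose and 0 fell with licorice at 500 µg/mL and with wortmannin. With ginseng, angelica and peony at 500 µg/mL 1 rose, LYZ in each case. Over all genes 23.9% rose and 23.7% fell with Poria, 16.7% rose and 15.7% fell with licorice, and 22.4% rose and 24% fell with wortmannin. The shares that rose were 4.66% with ginseng, 9.51% with angelica and 9.68% with peony. The fibroblast and stellate cell markers, of which 2 of 8 were tested, summed to 32.6 to 77.9 CPM. The part of other cell types in the results was not tested. The sample titles all name the same batch, BatchA. The sample descriptions also hold a name in fields, and its first field is called the set code here. It is A1 for vehicle, 1 for wortmannin, 2 for Poria and Atractylodes, 3 for licorice and ginseng, and 4 for angelica and peony. What the code stands for is not stated, so a difference between an extract and vehicle cannot be told apart from a difference between sets or in DMSO. A comparison of 500 with 20 µg/mL stays inside 1 set. The labels do not tell whether replicates were cultured apart, so each p-value reflects variation among libraries that may be technical.

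Promoter windows were found in RefSeq (GRCh38.p14) for 8 of the 10 genes, 11 windows in all, each from 250 bases before to 50 bases after a transcription start. HMOX1 and PRDX1 had no entry. The core of the antioxidant response element was searched in 2 forms, TGACNNNGC and TGAGNNNGC, on both strands. Either form occurred in 7 of the 11 windows and in 6 of the 8 genes, against 29.1% of 35116 windows of the same length over the genome. The C form occurred in 13.3% and the G form in 18.3% of those windows. No match lay in the windows of TXN and SRXN1, in 1 of the NFE2L2 windows and in 1 of the KEAP1 windows. The motif GCGTG, the core bound by the aryl hydrocarbon receptor, was in 8 of the 11 windows, against 36.5% of all windows. The windows below are shown because they belong to the 4 genes with the widest range of levels among those with a match. Capitals mark matches on either strand, and a match is a description of the letters, not evidence of a bound site.
NQO1 promoter, chr16:69726561-69726810, minus strand: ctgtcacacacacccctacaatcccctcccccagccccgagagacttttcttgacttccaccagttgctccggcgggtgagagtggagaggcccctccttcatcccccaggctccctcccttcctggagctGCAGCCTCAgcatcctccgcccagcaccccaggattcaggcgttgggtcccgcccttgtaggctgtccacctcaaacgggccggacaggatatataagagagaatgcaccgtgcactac
TXNRD1 promoter, second of 2 windows, chr12:104286782-104287031, plus strand: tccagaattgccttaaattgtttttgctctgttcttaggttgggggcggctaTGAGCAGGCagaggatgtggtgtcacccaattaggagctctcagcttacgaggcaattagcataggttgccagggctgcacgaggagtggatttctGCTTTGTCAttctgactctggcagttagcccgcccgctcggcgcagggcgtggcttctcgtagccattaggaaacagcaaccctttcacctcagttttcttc
OSGIN1 promoter, chr16:83952990-83953239, plus strand: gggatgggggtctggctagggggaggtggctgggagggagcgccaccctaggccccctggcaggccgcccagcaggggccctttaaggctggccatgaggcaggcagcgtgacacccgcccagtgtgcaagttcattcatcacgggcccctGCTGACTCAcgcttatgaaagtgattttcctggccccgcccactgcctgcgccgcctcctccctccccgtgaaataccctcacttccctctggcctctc
PIR, 29 bases just after the start, chrX:15493290-15493318, minus strand: ggccgcgaagcGCTGAGTCAcggtgaggc
In the printed windows the matches began at -119 in NQO1, at -198 and -102 in TXNRD1, at -99 in OSGIN1 and at 27 in PIR. Positions are counted from the start site. The first TXNRD1 window, which is not printed, had matches at -99 and -8.

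In vehicle-treated cells the 10 genes covered a wide range of levels. Per kilobase of exon, PRDX1, a peroxide-reducing enzyme, had the highest level at 297 CPM per kb. NQO1 followed at 126 and TXN at 102 CPM per kb. SRXN1 had 37.9, HMOX1 30.8, NFE2L2 28.6 and TXNRD1 27.1 CPM per kb. KEAP1 and OSGIN1 were at 15.3 and 13.6 CPM per kb, and PIR was lowest at 6.67 CPM per kb. Genes and pseudogenes that overlap or copy a member amounted to 4.62% of its own counts for PRDX1 and to under 1% for the others examined.

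At 500 µg/mL, all 10 genes rose above vehicle in Poria-treated cells and all 10 rose in licorice-treated cells, with median log2 changes of 0.75 and 0.89. Over all genes the medians were -0.02 for Poria and -0.01 for licorice. NQO1, TXNRD1, SRXN1, TXN, OSGIN1 and PIR changed by 0.63 to 1.50 on the log2 scale, while NFE2L2, KEAP1, HMOX1 and PRDX1 changed by 0.15 to 0.30. HMOX1 stood apart from the rest, since its highest level was in peony-treated cells. A call here means an adjusted p under 0.05 in edgeR's quasi-likelihood test with Benjamini-Hochberg adjustment over the 16093 genes tested. By that rule 23.9% of all genes rose in the Poria comparison and 16.7% in the licorice comparison. Each comparison with vehicle uses the same 3 vehicle libraries, so these comparisons are not independent of one another. In bulk RNA, a change in the mix of cells and a change in RNA per cell cannot be told apart.

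**Figure D1:**
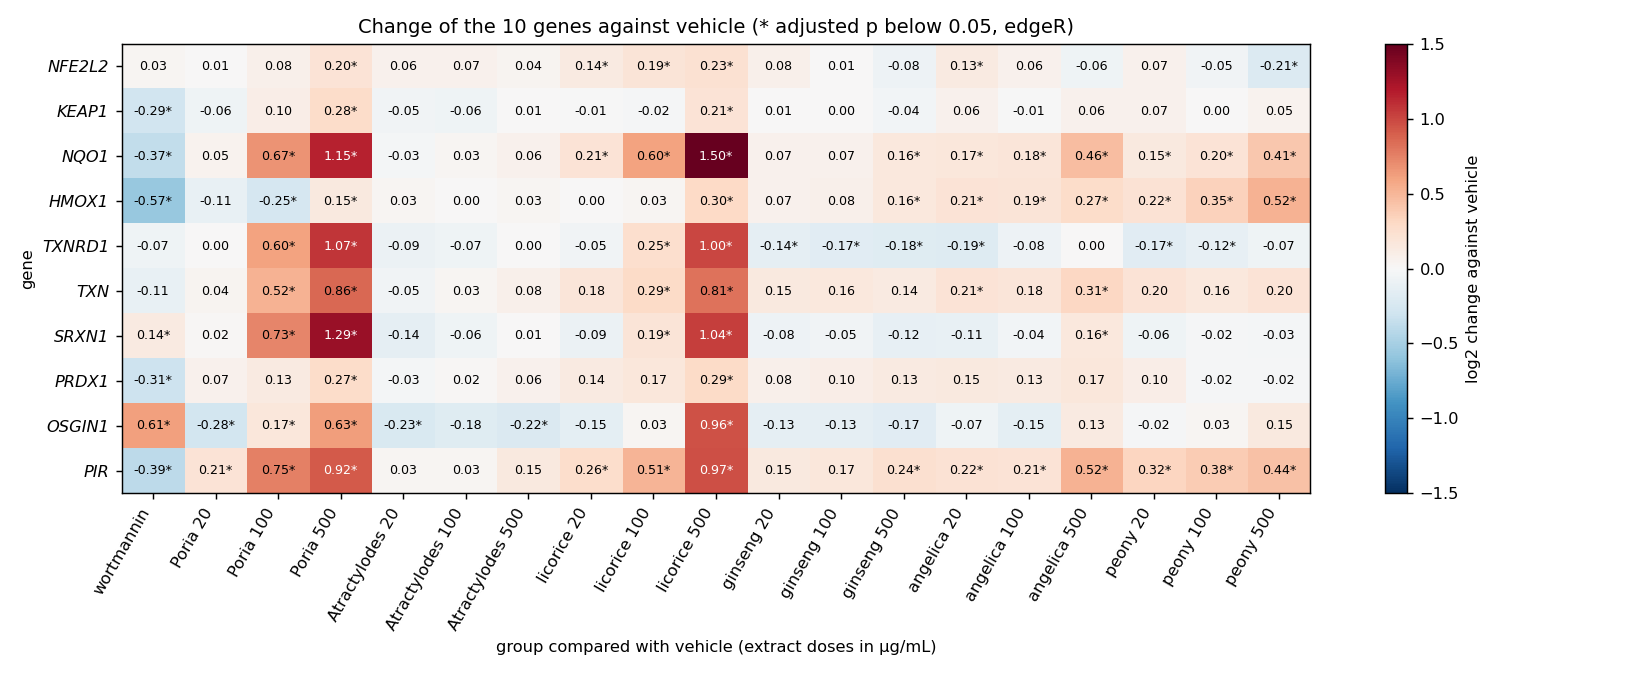
Log2 change of each of the 10 genes (rows) against vehicle in the 19 treated groups (columns, extract doses in µg/mL); colour and printed number give the fitted change, and an asterisk marks an edgeR adjusted p under 0.05. The Poria 500 and licorice 500 columns are positive and marked in all 10 rows. The wortmannin column mixes negative and positive rows, of which OSGIN1 (0.61) is the most positive and SRXN1 is also positive and marked.

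NFE2L2, the gene of NRF2 itself, varied least of the 10, with group means from 149 CPM in peony at 500 µg/mL to 201 CPM in licorice at 500 µg/mL, a ratio of 1.35. Its 3 libraries read 205, 199 and 198 CPM in licorice at 500 µg/mL and 207, 191 and 191 CPM in Poria at 500 µg/mL, against 175, 160 and 179 CPM in vehicle. Both extract groups lay above the vehicle range with no overlap. The log2 changes were 0.23 ± 0.038 (SE, edgeR adjusted p = 3.49e-06) for licorice and 0.20 ± 0.038 (edgeR adjusted p = 1.91e-05) for Poria. Peony moved the same mRNA the other way, with 148, 151 and 147 CPM at 500 µg/mL, all below vehicle. The log2 change was -0.21 (edgeR adjusted p = 6.47e-05).

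Within the peony dose series the NFE2L2 means were 179, 166 and 149 CPM at 20, 100 and 500 µg/mL. The value at 500 µg/mL was lower than at 20 µg/mL, with a log2 change of -0.27 ± 0.038 (SE, edgeR adjusted p = 1.82e-06). Angelica showed the same direction, with 167, 161 and 165 CPM at 500 µg/mL against 185, 192 and 184 CPM at 20 µg/mL, a log2 change of -0.19 (edgeR adjusted p = 0.00234). The groups did not overlap in either extract. In Poria the dose change was positive, 0.19 (edgeR adjusted p = 6.23e-05), and in licorice it was 0.09 and missed the threshold (edgeR adjusted p = 0.0705).

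KEAP1, the sensor that holds NRF2 in check, carries a C-form match in 1 of its promoter windows and reached its highest mean in Poria at 500 µg/mL. Its libraries read 66.9, 72.8 and 68.7 CPM there and 65, 68 and 66.7 CPM in licorice at 500 µg/mL, against 57.4, 59 and 55.8 CPM in vehicle. The ranges did not overlap. The log2 changes against vehicle were 0.28 ± 0.055 (SE, edgeR adjusted p = 3.48e-05) for Poria and 0.21 ± 0.054 (edgeR adjusted p = 0.00182) for licorice. At 20 and 100 µg/mL of either extract KEAP1 did not pass the test. For Poria at 100 µg/mL the log2 change was 0.10, and it was 0.16 (edgeR adjusted p = 0.0388) without replicate 1 of that group. Of all libraries, that replicate lay farthest from its own group mean over the genes tested.

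NQO1, the quinone reductase that turns quinones into hydroquinones in a single step, had the widest range, with a ratio of 3.64 between the highest and lowest group means. Vehicle libraries had 427, 412 and 392 CPM. In licorice it stood at 458, 489 and 475 CPM at 20 µg/mL, 602, 647 and 618 CPM at 100 µg/mL and 1155, 1124 and 1201 CPM at 500 µg/mL. Every licorice library exceeded every vehicle library, and the 3 doses did not overlap one another. The licorice change against vehicle was 0.21 at 20 µg/mL (edgeR adjusted p = 0.00124), 0.60 at 100 µg/mL (edgeR adjusted p = 1.73e-14) and 1.50 at 500 µg/mL (edgeR adjusted p = 2.2e-31), all on the log2 scale.

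Poria gave NQO1 values of 423, 421 and 433 CPM at 20 µg/mL, which overlapped vehicle, then 641, 659 and 654 CPM at 100 µg/mL and 888, 917 and 922 CPM at 500 µg/mL. The lowest dose did not differ from vehicle by the test, at a log2 change of 0.05 (edgeR adjusted p = 0.586). At 100 µg/mL NQO1 was 0.67 ± 0.044 higher (log2, SE, edgeR adjusted p = 3.74e-17). The dose change from 20 to 500 µg/mL was smaller in Poria than in licorice, with a difference of -0.20 ± 0.062 on the log2 scale (SE, edgeR adjusted p = 0.0152). Without replicate 1 of licorice at 20 µg/mL that difference was -0.17 and missed the threshold (edgeR adjusted p = 0.0522).

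The other extracts raised NQO1 by less. At 500 µg/mL it read 569, 575 and 553 CPM in angelica and 541, 568 and 531 CPM in peony, above all vehicle libraries. These were log2 changes of 0.46 (edgeR adjusted p = 1.11e-10) and 0.41 (edgeR adjusted p = 7.16e-10), and the dose changes from 20 to 500 µg/mL were 0.30 and 0.27, both past the threshold. Angelica and peony at 500 µg/mL did not differ in NQO1 by the test, with a difference of 0.05 and a 95% interval of -0.04 to 0.14. Ginseng at 500 µg/mL had 443, 476 and 454 CPM, a log2 change of 0.16 (edgeR adjusted p = 0.0147) that was 0.13 and missed the threshold without vehicle replicate 3 (edgeR adjusted p = 0.123) or ginseng replicate 2 (edgeR adjusted p = 0.114). Atractylodes at 500 µg/mL had 404, 430 and 448 CPM and overlapped vehicle.

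HMOX1, the enzyme that opens the heme ring to release iron, biliverdin and carbon monoxide, did not follow the order of NQO1. Its highest level was in peony. Vehicle libraries had 75.3, 74 and 73.3 CPM, and peony libraries had 86.6, 89 and 83.1 CPM at 20 µg/mL, 97.2, 93.9 and 93.3 CPM at 100 µg/mL and 107, 106 and 107 CPM at 500 µg/mL. All 9 peony libraries lay above vehicle, and the doses did not overlap. The log2 changes against vehicle were 0.22, 0.35 and 0.52 from the low to the high dose, with an edgeR adjusted p of 9.32e-11 at 500 µg/mL. Within peony, 500 over 20 µg/mL gave 0.30 ± 0.052 (SE, edgeR adjusted p = 7.84e-05).

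In Poria, HMOX1 was not monotonic. It read 67.3, 74 and 64.8 CPM at 20 µg/mL, 57.9, 64.8 and 64.8 CPM at 100 µg/mL and 82.9, 81.2 and 83.6 CPM at 500 µg/mL. The middle dose lay wholly below vehicle, with a log2 change of -0.25 ± 0.054 (SE, edgeR adjusted p = 0.000325), and the highest dose lay wholly above it, at 0.15 ± 0.053 (edgeR adjusted p = 0.0134). The step from 100 to 500 µg/mL was 0.40 (edgeR adjusted p = 1.27e-07), while the step from 20 to 100 µg/mL was -0.14 and missed the threshold (edgeR adjusted p = 0.0692). Without Poria replicate 3 at 20 µg/mL that step was -0.18 and passed (edgeR adjusted p = 0.0323). At the same middle dose NQO1, TXNRD1, TXN, SRXN1 and PIR had all risen.

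Licorice left HMOX1 near vehicle at the lower doses, with means of 74.5 and 75.5 CPM, and gave 90.2, 92.6 and 90.6 CPM at 500 µg/mL, above all vehicle libraries. The log2 change at 500 µg/mL was 0.30 ± 0.052 (SE, edgeR adjusted p = 1.13e-05). Angelica at 500 µg/mL had 89.3, 94 and 84.7 CPM, a log2 change of 0.27 (edgeR adjusted p = 0.000221), but its means of 85.9, 84.8 and 89.3 CPM across the 3 doses did not differ between 500 and 20 µg/mL by the test (0.06, 95% interval -0.05 to 0.16). HMOX1 was lower in angelica than in peony at 500 µg/mL, with a log2 difference of -0.25 (edgeR adjusted p = 0.000796), where 6.17% of all genes differed. The change from 20 to 500 µg/mL, with its sign, was lower in peony than in Poria for 9 of the 10 genes, where 31.8% of all genes differed. NFE2L2 had opposite signs, falling with peony and rising with Poria. The exception was HMOX1, with a difference of 0.04 and a 95% interval of -0.11 to 0.19. The count was 8 without Poria replicate 2 at 500 µg/mL or peony replicate 2 at 20 µg/mL, in both cases because PRDX1 missed the threshold (edgeR adjusted p = 0.071 and 0.0943).

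**Figure D2:**
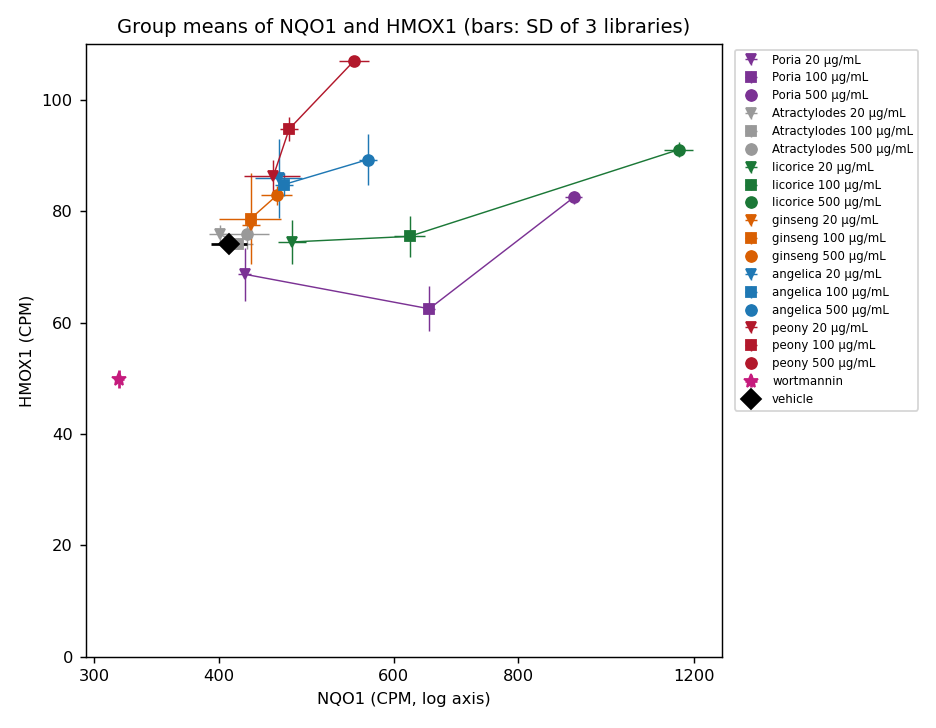
Group means of NQO1 (x axis, CPM on a log scale) and HMOX1 (y axis, CPM), with bars for the SD of 3 libraries and lines joining the doses of an extract from 20 to 500 µg/mL. Licorice and Poria run mainly along the NQO1 axis, peony runs up the HMOX1 axis to 107 CPM, and wortmannin lies lowest on both.

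The thioredoxin arm uses NADPH to keep protein thiols reduced: TXNRD1 reduces thioredoxin, thioredoxin (TXN) reduces peroxiredoxins such as PRDX1, and sulfiredoxin (SRXN1) rescues peroxiredoxins that have been overoxidized. TXNRD1 read 179, 185 and 182 CPM in vehicle, and in Poria 190, 174 and 182 CPM at 20 µg/mL, 286, 278 and 268 CPM at 100 µg/mL and 385, 369 and 390 CPM at 500 µg/mL. The 2 higher doses lay wholly above vehicle and apart from each other. At 500 µg/mL the change was 1.07 ± 0.040 (log2, SE, edgeR adjusted p = 8.78e-28), a fold of 2.09.

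Licorice gave TXNRD1 values of 179, 177 and 172 CPM at 20 µg/mL, 214, 225 and 209 CPM at 100 µg/mL and 353, 370 and 367 CPM at 500 µg/mL. At 100 µg/mL the change of 0.25 in licorice stood beside 0.60 in Poria, and at 500 µg/mL the changes were 1.00 and 1.07. The dose changes from 20 to 500 µg/mL differed between Poria and licorice by 0.02, with a 95% interval of -0.09 to 0.13. The lowest TXNRD1 mean, 159 CPM, was in angelica at 20 µg/mL. Ginseng at 500 µg/mL had 159, 160 and 163 CPM, below all vehicle libraries, a log2 change of -0.18 (edgeR adjusted p = 0.00184).

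SRXN1 showed the largest Poria response of the 10 genes. It read 102, 106 and 98.5 CPM in vehicle, and in Poria 111, 98.5 and 101 CPM at 20 µg/mL, 191, 162 and 157 CPM at 100 µg/mL and 265, 243 and 240 CPM at 500 µg/mL. The lowest dose overlapped vehicle and the 2 higher doses did not. The change at 500 µg/mL was 1.29 ± 0.049 (log2, SE, edgeR adjusted p = 2.04e-27). In licorice SRXN1 had 94, 94.6 and 99.8 CPM at 20 µg/mL, 117, 116 and 116 CPM at 100 µg/mL and 204, 214 and 212 CPM at 500 µg/mL, a change of 1.04 ± 0.049 at the highest dose (edgeR adjusted p = 3.99e-23). At 100 µg/mL the licorice change was 0.19 (edgeR adjusted p = 0.00644), and it was 0.16 and missed the threshold without vehicle replicate 3 (edgeR adjusted p = 0.0502). Angelica at 500 µg/mL had 119, 107 and 116 CPM, just above vehicle, a change of 0.16 (edgeR adjusted p = 0.0184) that ranged from 0.12 to 0.15 and missed the threshold without vehicle replicate 3, angelica replicate 1 or angelica replicate 3.

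TXN, the thioredoxin gene itself, rose with Poria to 195, 227 and 211 CPM and with licorice to 200, 205 and 205 CPM at 500 µg/mL, against 124, 118 and 106 CPM in vehicle. All 6 treated libraries lay far above the vehicle range. The log2 changes were 0.86 ± 0.075 (SE, edgeR adjusted p = 6.24e-14) and 0.81 ± 0.075 (edgeR adjusted p = 2.11e-12). Angelica at 500 µg/mL had 143, 144 and 146 CPM, a smaller change of 0.31 (edgeR adjusted p = 0.00233), but its dose change was 0.10 and missed the threshold (edgeR adjusted p = 0.716).

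PRDX1, which is expressed at a high level in vehicle, moved little. Poria at 500 µg/mL gave 492, 595 and 551 CPM and licorice gave 502, 582 and 575 CPM, against 450, 463 and 443 CPM in vehicle. Both groups lay above vehicle, but with a wide spread of their own. The log2 changes were 0.27 ± 0.071 (SE, edgeR adjusted p = 0.0012) and 0.29 ± 0.071 (edgeR adjusted p = 0.00104). Poria at 500 and at 20 µg/mL overlapped, and the change of 0.20 between them (edgeR adjusted p = 0.0203) fell to between 0.13 and 0.19 and missed the threshold when replicate 2 or replicate 3 of the 500 µg/mL group, or replicate 2 of the 20 µg/mL group, was left out.

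OSGIN1, an oxidative stress-induced growth inhibitor, lay below vehicle at the lowest Poria dose and above it at the highest. It read 46.5, 49.7 and 44.6 CPM in vehicle, and in Poria 39.9, 36.7 and 39.1 CPM at 20 µg/mL, 50.8, 55.2 and 52.7 CPM at 100 µg/mL and 78, 72.9 and 66.7 CPM at 500 µg/mL. None of the 3 Poria groups overlapped vehicle. At 20 µg/mL the log2 change was -0.28 ± 0.058 (SE, edgeR adjusted p = 0.00271). The change against vehicle at 500 µg/mL was 0.63, and within the Poria set 500 over 20 µg/mL gave 0.91 ± 0.058 (SE, edgeR adjusted p = 1.08e-18). The rise at 100 µg/mL, 0.17 (edgeR adjusted p = 0.0174), missed the threshold without vehicle replicate 1 (0.17, edgeR adjusted p = 0.0518), without vehicle replicate 3 (0.14) or without Poria replicate 2 (0.14).

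In licorice OSGIN1 stayed close to vehicle at the 2 lower doses, with means of 42.3 and 47.8 CPM, and reached 89.1, 93.1 and 92.1 CPM at 500 µg/mL. Nearly all of the change lay between 100 and 500 µg/mL. The change at 500 µg/mL was 0.96 ± 0.056 against vehicle (log2, SE, edgeR adjusted p = 1.26e-19) and 1.11 ± 0.056 against 20 µg/mL (edgeR adjusted p = 1.15e-21). Atractylodes at 500 µg/mL had 43.4, 38.3 and 38.8 CPM, its only called member, at -0.22 (edgeR adjusted p = 0.0439), a call lost in 5 of the 6 fits that left out vehicle replicate 1, 2 or 3 or Atractylodes replicate 2 or 3 (-0.18 to -0.26).

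PIR, which encodes the nuclear protein pirin, was the least abundant of the 10 but moved with NQO1. It read 17, 17.4 and 15.8 CPM in vehicle, and in Poria 18.7, 19.4 and 20.2 CPM at 20 µg/mL, 28.3, 29 and 27.4 CPM at 100 µg/mL and 31.1, 31.9 and 32 CPM at 500 µg/mL. All 9 Poria libraries exceeded vehicle, and most of the change was already present at 100 µg/mL, at 0.75 of the 0.92 on the log2 scale seen at 500 µg/mL. Licorice at 500 µg/mL had 32.3, 30.9 and 35.4 CPM, a change of 0.97 ± 0.061 (SE, edgeR adjusted p = 3.75e-18). PIR was also higher at 500 µg/mL in angelica, with 24.7, 23.9 and 23.4 CPM (0.52, edgeR adjusted p = 6.12e-08), and in peony, with 22.5, 22.2 and 23.7 CPM (0.44, edgeR adjusted p = 6.45e-07).

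**Figure D3:**
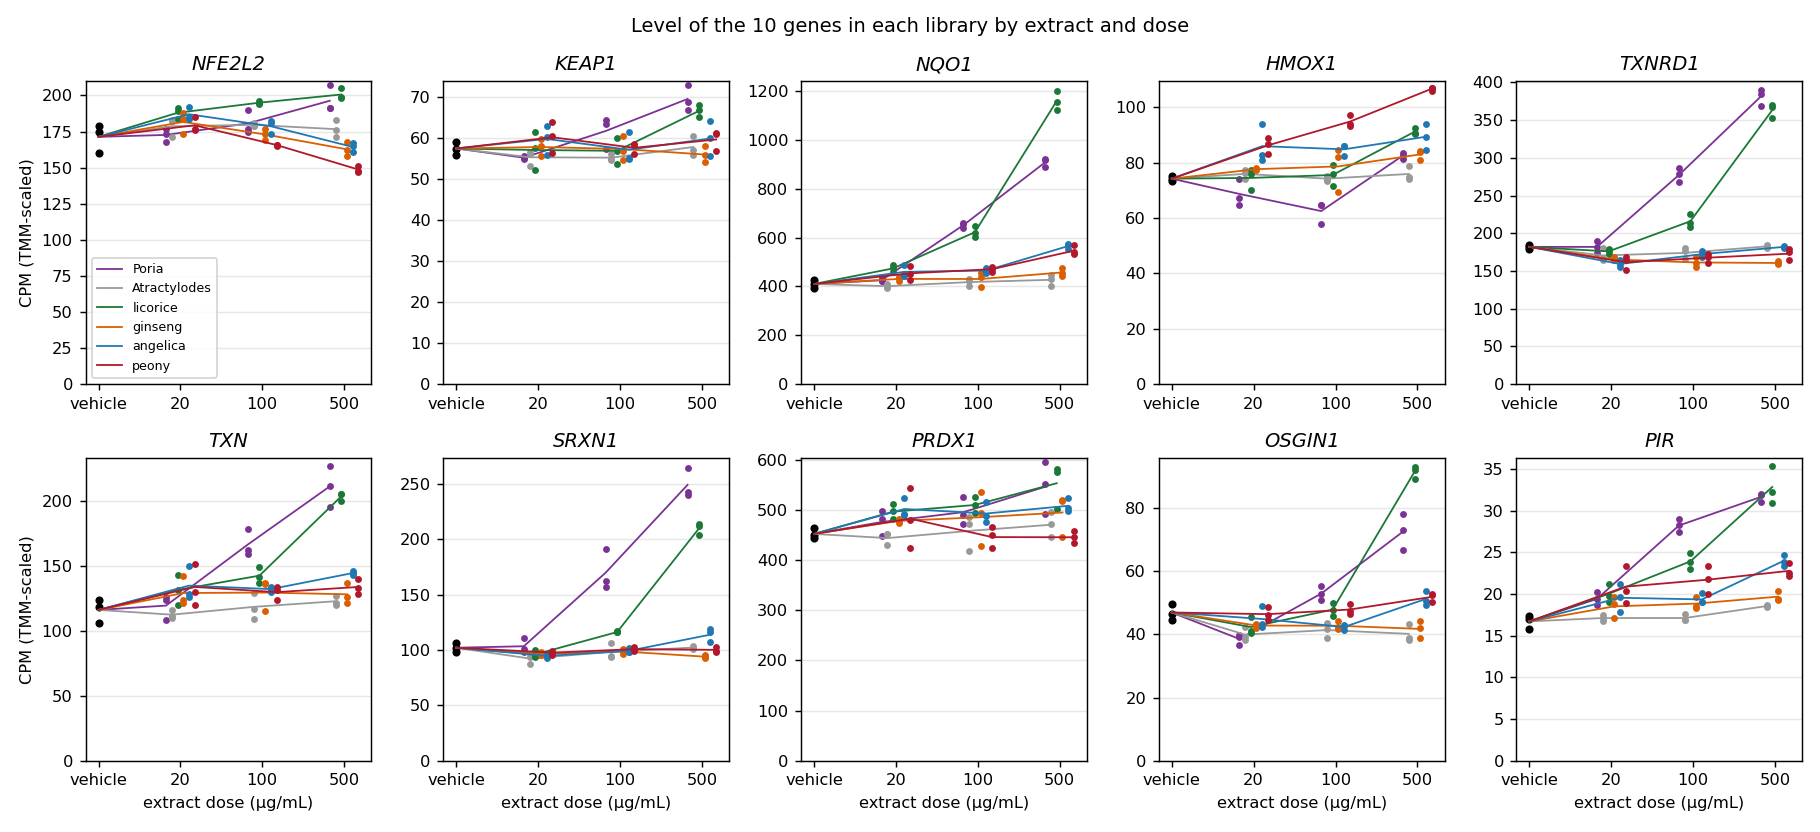
CPM (y axis, scaled by TMM) of the 10 genes in each library at vehicle, 20, 100 and 500 µg/mL (x axis), with a point for each library, a colour for each extract and lines through the group means. Poria (purple) and licorice (green) separate from the other extracts for NQO1, TXNRD1, TXN, SRXN1, OSGIN1 and PIR, and peony (red) lies highest for HMOX1 at 500 µg/mL (107 CPM) and lowest for NFE2L2 (149 CPM).

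The comparison of 500 with 20 µg/mL asks whether a gene responded to dose within an extract and its set. In Poria 10 of the 10 genes rose, with a median of 0.77, where 22.3% of all genes rose. In licorice 8 rose, with a median of 0.67, where 11% of all genes rose, and NFE2L2 and PRDX1 did not pass the test. All 10 had an unadjusted p under 0.05 there, and PRDX1 passed without licorice replicate 1 at 500 µg/mL (0.22, edgeR adjusted p = 0.035). Angelica gave 4 higher (NQO1, TXNRD1, SRXN1 and PIR) and 1 lower (NFE2L2), where 1.22% of all genes passed in either direction. With a fit to only the libraries of the groups compared, NQO1 (0.29) was the 1 member called in angelica, and NFE2L2 (-0.19), TXNRD1 (0.19), SRXN1 (0.26) and PIR (0.29) missed the threshold. The PIR change in angelica, 0.30, was 0.23 and missed the threshold without replicate 1 of the 20 µg/mL group. Peony gave 2 higher (NQO1 and HMOX1) and 1 lower (NFE2L2), where 3.49% of all genes passed.

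Ginseng and Atractylodes gave no calls among the 10 genes for 500 over 20 µg/mL in edgeR, where 0.149% and 0.0497% of all genes passed. In ginseng 1 gene had an unadjusted p under 0.05 and DESeq2 called 1, NFE2L2, which had 168, 158 and 162 CPM at 500 µg/mL and 173, 188 and 184 CPM at 20 µg/mL. Without ginseng replicate 1 at 20 µg/mL edgeR called it too, at -0.19 (edgeR adjusted p = 0.0324). In Atractylodes 3 genes had an unadjusted p under 0.05 and DESeq2 called 0.

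At 100 µg/mL Poria raised 6 of the 10 genes and lowered HMOX1 against vehicle, where 30.5% of all genes passed, and licorice raised 6, where 16.4% passed. The licorice count was 4 without vehicle replicate 3, when TXN (0.23) and SRXN1 (0.16) missed the threshold. At 20 µg/mL Poria raised PIR and lowered OSGIN1, where 3.8% of all genes passed, and licorice raised NFE2L2, NQO1 and PIR, where 11.2% passed. The PIR call in Poria, 0.21 (edgeR adjusted p = 0.0474), was lost without vehicle replicate 1, 2 or 3 or Poria replicate 2 or 3 (0.17 to 0.24). In licorice NFE2L2 was lost without vehicle replicate 2 (0.09) or licorice replicate 2 (0.12), and PIR without vehicle replicate 3 (0.22) or licorice replicate 2 (0.22).

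At the lowest dose the other extracts changed between 1 and 6 of the 10 genes against vehicle. Angelica at 20 µg/mL raised NFE2L2 (0.13), NQO1 (0.17), HMOX1 (0.21), TXN (0.21) and PIR (0.22) and lowered TXNRD1 (-0.19) on the log2 scale, where 24.3% of all genes passed. The count was 2 to 6 when 1 library was left out, lowest without angelica replicate 3, when NQO1 (0.12), HMOX1 (0.14), TXN (0.13) and PIR (0.16) missed the threshold. NFE2L2 missed it without vehicle replicate 2 (0.08) or angelica replicate 2 (0.10), TXN without vehicle replicate 2 (0.23), and NQO1 (0.13), TXN (0.15) and PIR (0.19) without vehicle replicate 3. With only the libraries of the groups compared 2 were called. Peony at 20 µg/mL raised NQO1 (0.15), HMOX1 (0.22) and PIR (0.32) and lowered TXNRD1 (-0.17), where 15.8% of all genes passed. NQO1 was lost without vehicle replicate 3 (0.12) or peony replicate 2 (0.10), TXN passed without vehicle replicate 1 (0.26) or peony replicate 1 (0.27), and 2 were called with only the libraries of the groups compared.

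Ginseng at 20 µg/mL lowered TXNRD1 (-0.14), where 13.9% of all genes passed, and the call was lost without vehicle replicate 2 or ginseng replicate 1 (-0.13 in both). Atractylodes at 20 µg/mL lowered OSGIN1 (-0.23), where 1.08% of all genes passed, and the call was lost without vehicle replicate 1 or 2 or Atractylodes replicate 2 or 3 (-0.19 to -0.24). At 100 µg/mL angelica raised NQO1 (0.18), HMOX1 (0.19) and PIR (0.21), where 14.6% of all genes passed, and PIR was lost without vehicle replicate 3 (0.17) or angelica replicate 1 (0.18). Peony at 100 µg/mL raised NQO1 (0.20), HMOX1 (0.35) and PIR (0.38) and lowered TXNRD1 (-0.12), where 10% passed. The TXNRD1 call was lost without vehicle replicate 1, 2 or 3 or peony replicate 1 or 3 (-0.10 to -0.13). With 100 µg/mL of ginseng TXNRD1 was lower (-0.17), where 8.53% of all genes passed. Without ginseng replicate 3 it missed the threshold (-0.14), and without ginseng replicate 1 HMOX1 (0.17) and TXN (0.24) passed. Atractylodes called 0 at 100 µg/mL in edgeR, where 1.35% passed and DESeq2 called 0, and 1 gene, OSGIN1, had an unadjusted p under 0.05 and passed without Atractylodes replicate 1 (-0.22).

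Most of the licorice response came at the top dose, and the Poria response was spread over both steps. Between 20 and 100 µg/mL, 7 of the 10 genes rose in Poria, where 18.8% of all genes passed, and 4 rose in licorice, where 1.52% passed. The KEAP1 call in Poria was lost when replicate 2 or 3 at 100 µg/mL, or any replicate at 20 µg/mL, was left out (0.13 to 0.17), and the PIR call in licorice when replicate 1 or 3 of either dose was left out (0.22 to 0.26). Between 100 and 500 µg/mL, 9 rose in Poria, where 19.3% of all genes passed, and 8 rose in licorice, where 9.12% passed. For Poria that count was 6 to 8 when 1 library was left out, and lowest without replicate 1 at 100 µg/mL, when NFE2L2 (0.10), KEAP1 (0.12) and PIR (0.17) missed the threshold. The PIR call was lost whichever library of either dose was left out (0.13 to 0.18), and DESeq2 called 8. NFE2L2 was also lost without replicate 1 at 500 µg/mL (0.07) or replicate 2 at 100 µg/mL (0.10), and KEAP1 without replicate 2 at 500 µg/mL (0.13).

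The dose changes of the 6 extracts were unequal for 9 of the 10 genes in a joint test, where 35.1% of all genes passed, and PRDX1 was the exception (edgeR adjusted p = 0.111). Against Atractylodes, which shares its set code, Poria had higher signed dose changes for 9 of the 10 genes, where 29.5% of all genes differed. Against ginseng, which shares its set code, licorice had higher signed dose changes for 8, where 8.79% of all genes differed. For NFE2L2, 1 of the 8, the changes had opposite signs, at 0.09 in licorice and -0.16 in ginseng, and neither passed by itself. KEAP1 was lost from these 8 without replicate 1 of licorice at 20 µg/mL (0.21), replicate 2 of ginseng at 20 µg/mL (0.24) or replicate 3 of ginseng at 500 µg/mL (0.25). Licorice also had higher signed dose changes than angelica for 8, where 7.58% of all genes differed, and for NFE2L2 the angelica change (-0.19) was larger in size than the licorice change (0.09). HMOX1 was lost from these 8 without replicate 1 of licorice at 20 µg/mL (0.19), replicate 2 of licorice at 500 µg/mL (0.23), replicate 1 (0.24) or 3 (0.20) of angelica at 500 µg/mL or replicate 3 of angelica at 20 µg/mL (0.17). KEAP1 passed too without replicate 2 of licorice at 20 µg/mL (0.28), or without angelica replicate 1 at 20 µg/mL (0.27) or replicate 2 at 500 µg/mL (0.28). The differences were 1.12 for SRXN1 and 1.00 for NQO1 between Poria and Atractylodes, and 1.20 for NQO1 and 1.17 for SRXN1 between licorice and ginseng, on the log2 scale. Between Poria and licorice NQO1 alone of the 10 passed, where 25.8% of all genes did, and OSGIN1 passed too without Poria replicate 1 at 500 µg/mL (-0.26), Poria replicate 2 at 20 µg/mL (-0.23) or licorice replicate 2 at 20 µg/mL (-0.25). SRXN1 passed without Poria replicate 1 at 20 µg/mL (0.19). Angelica and peony had no member with a different dose change in edgeR, where 0.926% of all genes differed, 2 members had an unadjusted p under 0.05 and DESeq2 called 1.

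**Figure D4:**
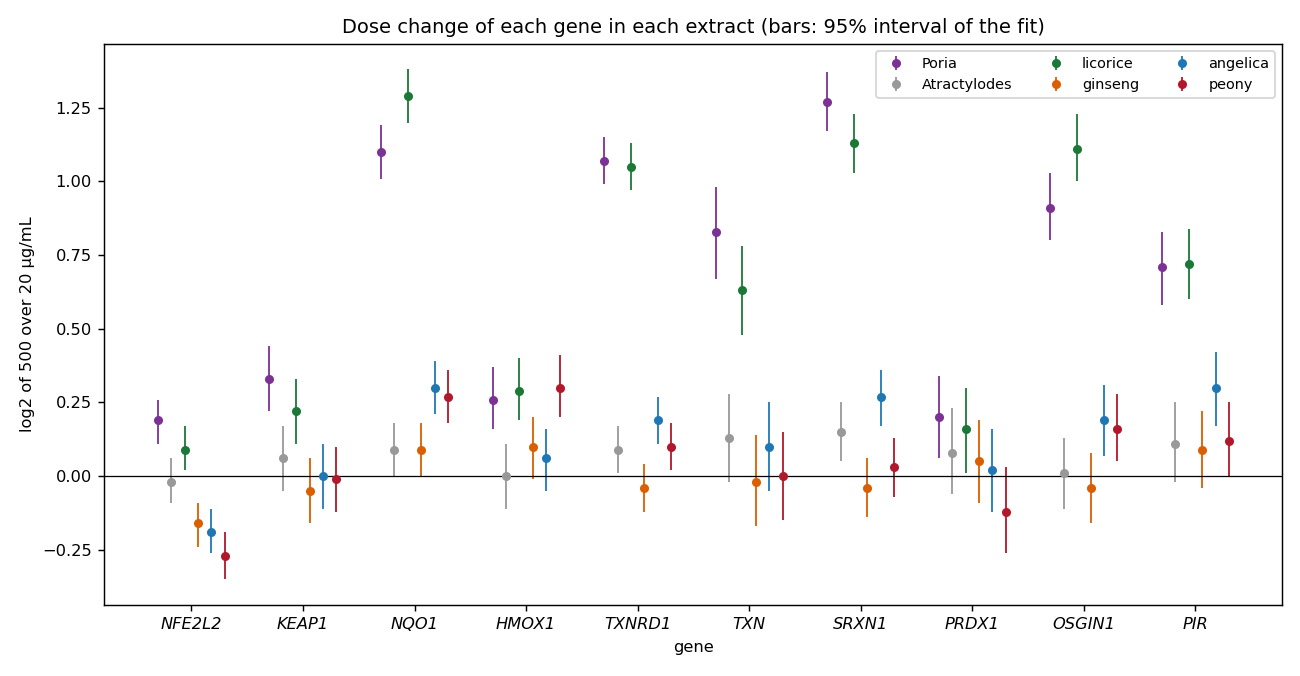
Fitted log2 change of 500 over 20 µg/mL (y axis) for each of the 10 genes (x axis) in the 6 extracts, with bars for the 95% interval of the fit. Poria and licorice lie between 0.63 and 1.29 for NQO1, TXNRD1, TXN, SRXN1, OSGIN1 and PIR, and for NFE2L2 the peony value is the lowest at -0.27.

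At the top dose the other 4 extracts changed between 1 and 5 of the 10 genes against vehicle. Angelica raised 5 of the 10 genes (NQO1, HMOX1, TXN, SRXN1 and PIR), where 9.51% of all genes rose. Peony raised 3 (NQO1, HMOX1 and PIR) and lowered NFE2L2, where 19.7% of all genes passed in either direction. Ginseng raised NQO1, HMOX1 and PIR and lowered TXNRD1, where 10.2% passed. Of these the HMOX1 call, 0.16 (edgeR adjusted p = 0.0391), was lost when any 1 of the 6 libraries compared was left out (vehicle or ginseng replicate 1, 2 or 3), at 0.15 to 0.17, and the PIR call, 0.24, was lost at 0.20 and 0.21 without vehicle replicate 3 or ginseng replicate 2. Atractylodes called 1, where 0.889% of all genes passed.

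Wortmannin lowered 5 of the 10 genes and raised 2, with a median log2 change of -0.20 for the 10 and 0.01 for all genes. In that comparison 46.3% of all genes passed in either direction, so a call on 7 of the 10 genes has to be read against a broad change. HMOX1 fell most, to 50.7, 48.2 and 51 CPM in wortmannin against 75.3, 74 and 73.3 CPM in vehicle. The ranges did not overlap, and the log2 change was -0.57 ± 0.054 (SE, edgeR adjusted p = 7.73e-13). NQO1 had 321, 314 and 319 CPM in wortmannin, below the vehicle range of 392 to 427 CPM, a log2 change of -0.37 (edgeR adjusted p = 1.13e-09).

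PIR (-0.39), PRDX1 (-0.31) and KEAP1 (-0.29) were also lower in wortmannin than in vehicle on the log2 scale, with edgeR adjusted p values of 3.76e-06, 0.000327 and 1.87e-05. OSGIN1 went the other way, with 73.2, 67.9 and 73.2 CPM in wortmannin against 46.5, 49.7 and 44.6 CPM in vehicle. Its rise of 0.61 ± 0.056 (log2, SE, edgeR adjusted p = 4.3e-13) was close in size to that with Poria at 500 µg/mL. SRXN1 had 109, 114 and 114 CPM, a change of 0.14 (edgeR adjusted p = 0.017) that missed the threshold without vehicle replicate 3 (0.11) or wortmannin replicate 2 (0.13). NFE2L2 (0.03), TXNRD1 (-0.07) and TXN (-0.11) did not pass the test.

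**Figure D5:**
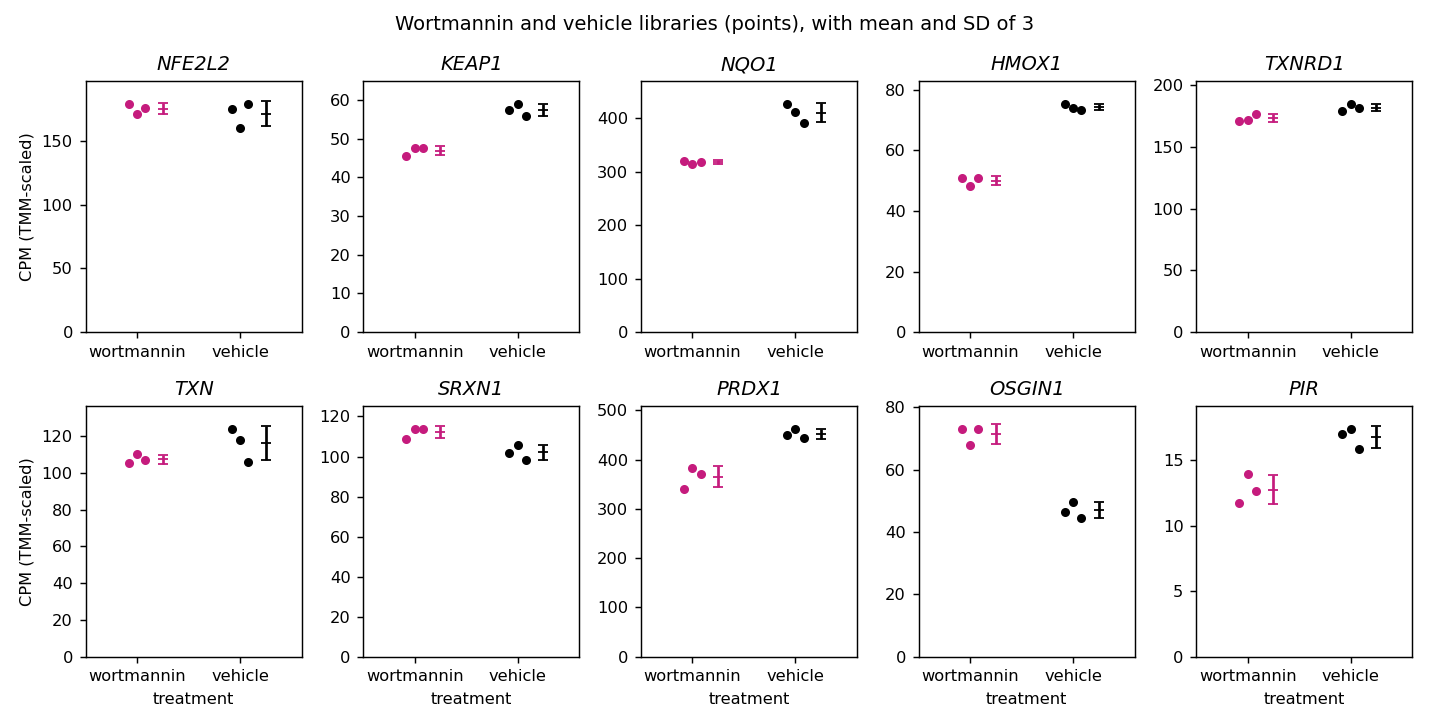
CPM (y axis, scaled by TMM, from 0) of the 10 genes in the 3 wortmannin and 3 vehicle libraries (points), with the mean and SD beside them. HMOX1, NQO1, KEAP1, PRDX1 and PIR lie lower in wortmannin with no overlap, and OSGIN1 lies higher (73.2, 67.9 and 73.2 CPM in wortmannin).

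A list of 26 other NRF2 targets, which covers glutathione, NADPH and detoxification enzymes, was chosen by function with earlier results known, as were the lists that follow. The counts of each list are read against the shares over all genes at 500 µg/mL against vehicle. Those shares were 23.9% higher and 23.7% lower with Poria, 16.7% and 15.7% with licorice, 9.51% and 9.41% with angelica, 9.68% and 9.98% with peony, 4.66% and 5.58% with ginseng, and 22.4% and 24% with wortmannin. Of 24 tested, 19 rose and 2 fell with Poria at 500 µg/mL against vehicle, with a median of 0.48, and 22 rose and 0 fell with licorice, also with a median of 0.48. These were 79.2% higher in Poria and 91.7% higher in licorice. With angelica 12 rose and 0 fell, with peony 8 rose and 4 fell, and with wortmannin 8 rose (33.3%) and 9 fell (37.5%). AKR1B10, an aldo-keto reductase, averaged 365 CPM in Poria and 226 CPM in licorice at 500 µg/mL, against 45.9 CPM in vehicle, log2 changes of 2.99 and 2.30. SQSTM1, an autophagy receptor that can bind KEAP1, averaged 722 CPM in Poria and 337 CPM in licorice, against 197 CPM in vehicle. Reads of AKR1B10 may be shared with close relatives, so its level is less certain.

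Among 18 tested partners and regulators of NRF2, 11 rose and 2 fell with Poria, with a median of 0.20, and 4 rose and 2 fell with licorice, with a median of 0.04. The licorice shares, 22.2% and 11.1%, stood beside 16.7% and 15.7% of all genes, and the Poria share that rose, 61.1%, beside 23.9%. MAFF, a small MAF partner, averaged 21.5 CPM in Poria and 11.8 CPM in licorice, against 8.31 CPM in vehicle. MAFG, another partner, averaged 61 CPM in Poria and 64.5 CPM in licorice, against 48.1 CPM in vehicle. SQSTM1 and MAFG stand in both lists. The rest of the thioredoxin and peroxiredoxin system was split: of 21 other genes, 6 rose and 7 fell with Poria, and 5 rose and 1 fell with licorice. The shares were 28.6% higher and 33.3% lower for Poria and 23.8% higher and 4.76% lower for licorice, beside 23.9% and 16.7% of all genes that rose. GLRX, glutaredoxin, averaged 134 CPM in Poria, against 49.8 CPM in vehicle.

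The genes of heme synthesis, use and breakdown were split as well. Of 20 tested, 8 rose and 7 fell with Poria and 7 rose and 2 fell with licorice, with medians of 0.03 and 0.11. These were 40% and 35% for Poria and 35% and 10% for licorice. The ferritin chains FTH1 and FTL, which store iron and have many processed copies in the genome, rose with Poria by 0.61 and 0.77 on the log2 scale. Of 10 other quinone and carbonyl reductases, 2 rose and 5 fell with Poria and 3 rose and 1 fell with licorice, which is 20% and 50% for Poria and 30% and 10% for licorice. NQO2, the close relative of NQO1, rose by 0.32 with Poria and 0.22 with licorice on the log2 scale.

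Other stress programs moved in the same libraries, and their part in the results above was not tested. Of 9 aryl hydrocarbon receptor targets, a group of a receptor for which NQO1 is also a textbook target, 7 rose with licorice at 500 µg/mL, with a median of 1.87 (77.8%, against 16.7% of all genes), and 2 rose and 1 fell with Poria, with a median of -0.07 (22.2% rose, near the 23.9% of all genes). CYP1A1, the most used readout of that receptor, averaged 714 CPM in licorice, 108 CPM in angelica, 42.4 CPM in peony and 26.3 CPM in Poria, against 12.7 CPM in vehicle. Its levels with ginseng, Atractylodes and wortmannin are not listed here. Of the 9 targets, 3 rose and 1 fell with angelica, 3 rose with peony, and 2 rose and 1 fell with ginseng. With wortmannin 2 rose and 2 fell, and with Atractylodes 1 rose. Over all genes 9.51%, 9.68%, 4.66%, 22.4% and 0.559% rose in that order. Of 13 tested ATF4 targets, 11 rose and 0 fell with peony, with a median of 0.74 (84.6% rose, against 9.68% of all genes), and 9 rose and 4 fell with Poria (69.2% and 30.8%). Of 11 heat shock genes, which like HMOX1 are induced by many stresses, 0 rose and 8 fell with wortmannin (72.7% fell, against 24% of all genes). At 500 µg/mL 10 rose with licorice, 7 each with Poria, ginseng and angelica, 5 with Atractylodes and 3 with peony. Poria and peony each had 1 that fell. Over all genes 0.559% rose with Atractylodes. At 20 µg/mL 9 rose with licorice, 8 with angelica, 8 with peony and 7 with ginseng. With Poria 5 rose and with Atractylodes 5, and 0 fell with any extract. The shares of all genes that rose were 5.89%, 12.1%, 7.57%, 6.72%, 2.09% and 0.82% in that order. For 500 over 20 µg/mL 5 rose and 2 fell with Poria, 2 rose with licorice and 7 fell with peony, the extract in which HMOX1 was highest. Over all genes 22.3% rose and 21.2% fell in that Poria comparison, 11% rose in licorice and 1.7% fell in peony. Of 10 hepatocyte markers, 0 rose and 8 fell with licorice (80% fell, against 15.7% of all genes), while 5 rose and 2 fell with Poria and 6 rose with wortmannin.

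Across the 20 group means, the 10 genes fell into patterns that are given here as descriptions, since groups share extracts, set codes and doses. TXNRD1 and SRXN1 had a Pearson correlation of 0.98, NQO1 and TXN of 0.96, and NQO1 and PIR of 0.95. HMOX1 had a correlation of 0.40 with NQO1 and 0.00 with TXNRD1. Among 10560 genes compared over the 20 groups, those most like NQO1 included TALDO1 (0.971), TKT (0.969) and MGST1 (0.962). TALDO1 and TKT encode the transaldolase and transketolase of the pentose phosphate pathway. Those most like HMOX1 were SAP30BP (0.935), WDR18 (0.904), TMUB1 (0.903) and ZNF205 (0.895).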

How the data were processed

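The deposited table holds expected counts per gene, which the authors made with FastQC 0.11.9, Trim Galore 0.6.5, STAR 2.7.3a and RSEM 1.3.3 on hg38, per the submitters' processing notes. The strand setting of the counting is not given in the sources used here. The table has 270 sample columns, of which 60 match the samples given here and 210 were not used. Of the values above 0, 76.1% were whole numbers, and all were rounded to whole numbers before testing. Groups were taken from the labels.

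Genes were filtered with filterByExpr (minimum count 10, minimum total 15), which kept 16093. A single model held a mean for each group over the 60 libraries, in edgeR 4.0.16 with limma 3.58.1 under R 4.3.3, after TMM scaling (factors 0.926 to 1.03). The quasi-likelihood test used 40 residual degrees of freedom, and p-values were adjusted by Benjamini-Hochberg within each comparison at a threshold of 0.05. Library totals of 20.9 to 33.4 M put 3 counts at 0.0899 to 0.144 CPM, well below the levels of the 10 genes. CPM values are scaled by TMM, except the marker sums and means and the CPM of 3 counts, which use library totals alone. The 10 genes, the gene lists and the tests were chosen with earlier results of these data known. Every one of the 10 genes is named, and up to 4 genes of each other list, those with the smallest p among the called, could be named, with CYP1A1 and AKR1B10 whatever their values. The genes most like NQO1 and HMOX1 were ranked by Pearson correlation over group means among genes averaging 5 CPM or more. The fitting code was tested on simulated data. Alternatives were DESeq2 1.42.0, DESeq2 size factors, no filter, a 1 CPM minimum mean, only the libraries compared, a replicate block, and each library left out.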

Additional observations from a re-analysis of the deposited data

Results flagged for a closer look

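All of these values are differences between extracts in the log2 change from 20 to 500 µg/mL, tested in edgeR as interaction terms. The changes keep their sign, so a positive difference can hold between a rise and a fall, and each difference passed an adjusted p of 0.05.

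The difference Poria minus Atractylodes was positive for SRXN1 (1.12), NQO1 (1.00), TXNRD1 (0.97), OSGIN1 (0.90), TXN (0.70), PIR (0.59), KEAP1 (0.27), HMOX1 (0.26) and NFE2L2 (0.20). The difference licorice minus ginseng was positive for NQO1 (1.20), SRXN1 (1.17), OSGIN1 (1.15), TXNRD1 (1.09), TXN (0.64), PIR (0.63), KEAP1 (0.27) and NFE2L2 (0.25). The NFE2L2 changes themselves were 0.09 in licorice and -0.16 in ginseng. The genes that differed in these comparisons within a set code included both regulators, NFE2L2 and KEAP1, although their changes were the smaller ones.

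The difference peony minus Poria was negative for SRXN1 (-1.23), TXNRD1 (-0.97), NQO1 (-0.83), TXN (-0.83), OSGIN1 (-0.75), PIR (-0.58), NFE2L2 (-0.46), KEAP1 (-0.35) and PRDX1 (-0.31), with NFE2L2 changes of -0.27 in peony and 0.19 in Poria. The difference licorice minus angelica was positive for NQO1 (0.99), OSGIN1 (0.92), SRXN1 (0.86), TXNRD1 (0.85), TXN (0.53), PIR (0.42), NFE2L2 (0.28) and HMOX1 (0.24), with NFE2L2 changes of 0.09 in licorice and -0.19 in angelica. The HMOX1 difference was 0.19 without replicate 1 of licorice at 20 µg/mL and missed the threshold (edgeR adjusted p = 0.141), as it did without licorice replicate 2 (0.23), angelica replicate 1 (0.24) or angelica replicate 3 (0.20) at 500 µg/mL, or angelica replicate 3 at 20 µg/mL (0.17). KEAP1 missed the threshold for licorice minus angelica with all libraries. It passed without licorice replicate 2 (0.28) or angelica replicate 1 (0.27) at 20 µg/mL, or angelica replicate 2 at 500 µg/mL (0.28). Between Poria and licorice NQO1 differed (-0.20).

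The joint test that the 6 dose changes are unequal gave edgeR adjusted p values of 9.02e-26 for TXNRD1, 9.58e-25 for NQO1, 2.06e-24 for SRXN1, 5.72e-19 for OSGIN1, 3.74e-10 for TXN, 4.9e-10 for PIR, 6.41e-10 for NFE2L2, 0.000187 for KEAP1 and 0.000668 for HMOX1. No explanation of these differences was tested.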

How the results depend on the processing

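The 130 changes of the 10 genes came from 13 comparisons: 500 µg/mL with vehicle, wortmannin with vehicle, and 500 with 20 µg/mL. No change that passed in the main fit or in the alternative reversed its direction. A change of sign where neither fit passed was not counted as a reversal. The side of the threshold was the same for 127 with DESeq2, 129 with DESeq2 size factors, 129 with a mean of at least 1 CPM, 125 with no filter and 122 with only the libraries of the groups compared. That last setting left 0 members called for Atractylodes at 500 µg/mL against vehicle and 1 for angelica 500 over 20 µg/mL, and DESeq2 called 1 for ginseng 500 over 20 µg/mL.

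With the replicate number as a block, 128 of 130 were unchanged, and OSGIN1 in ginseng (-0.17) and TXN in peony (0.20) at 500 µg/mL against vehicle passed as well. Same-numbered replicates had correlations over 0.1 for all 3 numbers in 0 of 13 comparisons, so the numbers were not taken as pairs.

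Leaving out 1 library at a time, members called ranged from 6 to 7 for wortmannin, 10 to 10 for Poria, 0 to 1 for Atractylodes, 10 to 10 for licorice, 2 to 4 for ginseng, 4 to 5 for angelica and 4 to 5 for peony at 500 µg/mL against vehicle. For 500 over 20 µg/mL they ranged from 9 to 10, 0 to 0, 8 to 9, 0 to 1, 4 to 6 and 3 to 3 in the same order of extracts, and from 9 to 10 in the joint test. Leaving out libraries in the other 33 comparisons was chosen after seeing the data.

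Counts over all genes also moved by more than 1.5 times. Atractylodes against vehicle had 143, against 215 with DESeq2, 331 with no filter and 86 with only the groups compared, and Atractylodes 500 over 20 µg/mL had 8, against 15, 90 and 16. Ginseng 500 over 20 µg/mL had 24, against 37 with DESeq2 and 114 with no filter. Angelica 500 over 20 µg/mL had 196, against 315 with no filter and 53 with only the groups compared, and peony had 561, against 156. Leaving out 1 library gave 12 to 364 for Atractylodes, 856 to 1480 for ginseng (1648 with all libraries) and 1800 to 2587 for angelica (3045) at 500 µg/mL against vehicle. For 500 over 20 µg/mL it gave 0 to 5 for Atractylodes, 8 to 30 for ginseng, 110 to 217 for angelica and 319 to 503 for peony. At 20 µg/mL against vehicle it gave 141 to 697 for Poria (611), 716 to 1937 for licorice (1798), 1828 to 4052 for angelica (3914), 1180 to 2502 for peony (2537), 1117 to 1837 for ginseng (2232) and 22 to 370 for Atractylodes (174). At 100 µg/mL against vehicle it gave 1681 to 2295 for licorice (2645), 1347 to 1986 for angelica (2352), 937 to 1254 for peony (1617), 482 to 2314 for ginseng (1373) and 12 to 426 for Atractylodes (217). It gave 114 to 236 for licorice 100 over 20 µg/mL (244), 548 to 772 for angelica against peony at 500 µg/mL (993) and 66 to 144 for the difference between their dose changes (149). The cause was not tested.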
